A study of Mus musculus with 6 samples.

Results

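The genes described here encode the mouse Fc gamma receptors Fcgr1, Fcgr2b, Fcgr3 and Fcgr4, the receptor Trem2, the adaptors Fcer1g and Tyrobp, and the kinase Syk. They were taken by gene symbol, and all 8 were found among the 20938 genes of the expression table. All 8 also passed the filter for testing, which asked for an average of 1 FPKM or more (fragments scaled to transcript length and library depth). Fcgr4 passed it only through the group where it was higher. The 8 genes were chosen by their known roles and with their FPKM values in these same libraries in view, so their differences between the groups are given as a description, with no test of the genes as a set. The calls of the fit over all genes are printed with them and nothing is read from them.

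RNA was sequenced from whole tumours that B16F10 cells, a melanoma line from C57BL/6 mice, had formed under the skin of male C57BL/6 mice. The series set 3 tumours labelled as overexpressing YKL-40 against 3 control tumours, all with WT as genotype label, and the libraries of the labelled tumours are called YKL-40 libraries after that label. YKL-40 is a secreted chitinase-like protein. Per the labels, all mice were 6 weeks old and received the cells, in 200 µL of saline, at the left hind leg, and all tumours were collected on day 19. The labels do not say what the control cells carried, which species' YKL-40 was expressed, whether the cells were 1 clone or a pool, or whether each tumour came from a separate mouse. The p-values therefore measure only the spread between these libraries, which may be technical in part. All samples carry the cell type label melanoma cells, and melanocyte genes were abundant in every library, led by Pmel at 4906 ± 753 FPKM in the YKL-40 libraries and 3752 ± 122 FPKM in controls (SD, n = 3 each, as after every level, ratio or share, while ± after a log2 change gives the standard error of the fit). The mouse gene of YKL-40, Chil1 in the table, was listed at 0 in all 3 YKL-40 libraries and at 0.0644, 0 and 0.0242 FPKM in the controls, so the table does not check the labels. FPKM values summed to between 468605 and 490955 per library, and read numbers are not given, so the depth behind a value is unknown.

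Fc gamma receptors bind the constant part of IgG antibodies. The activating ones have no signalling tail of their own and rely on Fcer1g, the common gamma chain, whose tail carries an immunoreceptor tyrosine-based activation motif (ITAM). Phosphorylated ITAMs dock the kinase Syk. Fcgr2b carries an inhibitory motif (ITIM) and recruits phosphatases that oppose Syk signalling. Tyrobp, also called DAP12, is the ITAM adaptor of Trem2, a lipid-sensing receptor of macrophages and microglia.

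Fcgr2b, Fcgr4, Fcgr3 and Fcer1g lie in that order on chromosome 1 (Fcgr2b at 170960558 to 170976071, Fcgr4 at 171018926 to 171029761, Fcgr3 at 171051169 to 171065915 and Fcer1g at 171229572 to 171234349, RefSeq, GRCm38.p6, the assembly of mm10). Fcgr1 lies on chromosome 3 (96282909 to 96293969), Tyrobp on chromosome 7 (30413782 to 30417582), Trem2 on chromosome 17 (48346401 to 48352276) and Syk on chromosome 13 (52582610 to 52648792). The bases just before a RefSeq start of the 3 activating receptor genes are shown because these genes form the numerator of the ratio compared below. Capitals mark matches, on either strand, to the core of the PU.1 motif (GAGGAA), of the gamma-activated site (TTCNNNGAA) and of the interferon-stimulated response element (GAAANNGAAA).
Fcgr4 (chr1:171018676-171018925, plus strand): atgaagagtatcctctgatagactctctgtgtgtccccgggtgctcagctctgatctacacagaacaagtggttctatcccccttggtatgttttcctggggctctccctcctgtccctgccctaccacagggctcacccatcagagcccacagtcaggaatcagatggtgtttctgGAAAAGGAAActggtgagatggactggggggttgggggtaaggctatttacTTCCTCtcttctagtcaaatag
Fcgr1 (chr3:96293970-96294219, minus strand): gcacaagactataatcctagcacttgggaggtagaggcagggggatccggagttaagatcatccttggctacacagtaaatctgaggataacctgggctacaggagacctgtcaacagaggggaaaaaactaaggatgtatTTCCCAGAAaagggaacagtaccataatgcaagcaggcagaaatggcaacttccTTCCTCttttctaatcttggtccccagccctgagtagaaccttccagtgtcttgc
Fcgr3 (chr1:171059404-171059653, minus strand): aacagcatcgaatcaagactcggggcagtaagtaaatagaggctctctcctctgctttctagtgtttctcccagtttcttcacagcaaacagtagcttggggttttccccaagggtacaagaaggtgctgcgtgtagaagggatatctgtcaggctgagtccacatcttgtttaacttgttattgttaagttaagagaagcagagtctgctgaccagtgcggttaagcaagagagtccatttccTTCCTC
The Fcgr4 window held the response element core starting 73 bases before the start site, and a PU.1 core. The Fcgr1 window held the gamma-activated site core starting 109 bases before the start site, and a PU.1 core. The Fcgr3 window held a PU.1 core. Of the windows not shown, those of Fcgr2b and Fcer1g held none of these cores, and that of Trem2 held a PU.1 core. Windows were present for 7 of the 8 genes, and 5 of these 7 had a PU.1 core in at least 1 window. Fcgr3 and Syk had 2 windows each, with the Syk match in 1 of them. Both Fcgr3 windows lay inside the gene span given above. These counts are per gene, whereas the shares that follow are per window. Among 32851 promoter windows of 250 bases in the same table, 23.3% held the PU.1 core, 7.02% the gamma-activated site core and 2.98% the response element core. A match describes letters in the window and does not show binding.

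Fcgr2b and Fcgr3 are close enough in sequence for reads to fit both. Their transcripts were 96.5% identical over 509 aligned bases in GENCODE, and of the 50-base windows of each gene's transcripts, 4.48% for Fcgr2b and 10.2% for Fcgr3 occurred in the other. The longest run that both share exactly is 129 coding bases, spliced from more than 1 exon in both genes, shown as an example of sequence that cannot assign a read.
Fcgr2b and Fcgr3, shared run: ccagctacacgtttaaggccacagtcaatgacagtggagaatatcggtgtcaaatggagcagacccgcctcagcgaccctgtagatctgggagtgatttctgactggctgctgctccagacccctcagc
The sources used here do not say how the authors divided such reads, so the split between these 2 genes is uncertain to that extent. The other pairs of Fc gamma receptors shared 0 of these windows. In GENCODE an antisense gene overlaps 155 of the 5790 exon bases of Fcgr2b, and the library kit named in the labels does not keep strand.

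All 3 activating receptors had higher levels in the YKL-40 libraries, and their groups did not overlap. Fcgr4, which binds IgG2a/c and IgG2b on myeloid cells, differed most. It had 4.46, 3.51 and 9.29 FPKM in the YKL-40 libraries, against 0.180, 1.11 and 1.22 FPKM in the controls. Its lowest YKL-40 value was 2.87 times the highest control, and the ratio of the group means was 6.88. Its control mean of 0.836 FPKM lay under the filter, so Fcgr4 was tested only through its YKL-40 levels. Fcgr1, the high-affinity receptor, had 9.95, 8.47 and 15.4 FPKM in the YKL-40 libraries, against 1.79, 3.40 and 8.24 FPKM in the controls. The groups of Fcgr1 nearly met, since its lowest YKL-40 value was 1.03 times the highest control. Fcgr3, the low-affinity activating receptor of macrophages and natural killer cells, had 14.1, 11.8 and 15.3 FPKM in the YKL-40 libraries, against 4.20, 5.27 and 9.15 FPKM in the controls. The 3 changes on the log2(FPKM + 1) scale, YKL-40 minus control, were 1.84 ± 0.36 for Fcgr4, 1.30 ± 0.42 for Fcgr1 and 1.08 ± 0.24 for Fcgr3 (± SE of the fit), a scale that understates the change of a low gene such as Fcgr4.

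The inhibitory receptor Fcgr2b was the most abundant Fc gamma receptor in each of the 6 libraries, and its groups overlapped. It had 23.1, 15.7 and 20.2 FPKM in the YKL-40 libraries, against 6.23, 9.06 and 17.0 FPKM in the controls. Control 3 lay above YKL-40 library 2. The change was 0.90 ± 0.32 on the log2(FPKM + 1) scale.

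The adaptors followed the activating receptors, whereas Trem2 did not. Fcer1g was the most abundant of the 8 genes by group mean in both groups, with 51.0, 32.1 and 65.8 FPKM in the YKL-40 libraries, against 5.79, 14.1 and 24.8 FPKM in the controls (change 1.81 ± 0.47). Tyrobp had 7.59, 5.99 and 9.43 FPKM in the YKL-40 libraries, against 1.27, 2.81 and 5.82 FPKM in the controls (1.14 ± 0.37). Both adaptors were higher in every YKL-40 library than in any control, Tyrobp by a factor of 1.03 at the nearest point and Fcer1g by 1.30. Trem2, the partner of Tyrobp, had 2.35, 6.10 and 4.39 FPKM in the YKL-40 libraries, against 2.35, 3.17 and 5.20 FPKM in the controls (0.19 ± 0.32). Its groups overlapped fully, YKL-40 library 1 being the lowest and YKL-40 library 2 the highest of all 6 libraries. The sign of the Trem2 change depended on single libraries, at -0.01 when control 1 was left out and -0.06 when YKL-40 library 2 was.

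Syk, which acts after both adaptors, varied least within the groups. It had 10.9, 8.89 and 11.4 FPKM in the YKL-40 libraries, against 5.49, 5.50 and 6.95 FPKM in the controls (0.71 ± 0.13). The highest library was 1.28 times the lowest within the YKL-40 group and 1.27 times within the controls, against 2.05 times in the YKL-40 group and 4.28 times in the controls for Fcer1g. The ratio of Syk to Fcer1g was accordingly 0.213, 0.277 and 0.173 in the YKL-40 libraries and 0.948, 0.391 and 0.280 in the controls. The groups did not overlap but nearly met, at 0.277 and 0.280. Fcer1g was itself higher in every YKL-40 library, and the share of all genes lower on this base was not computed. Nothing particular to Syk is read from this ratio.

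**Figure D1:**
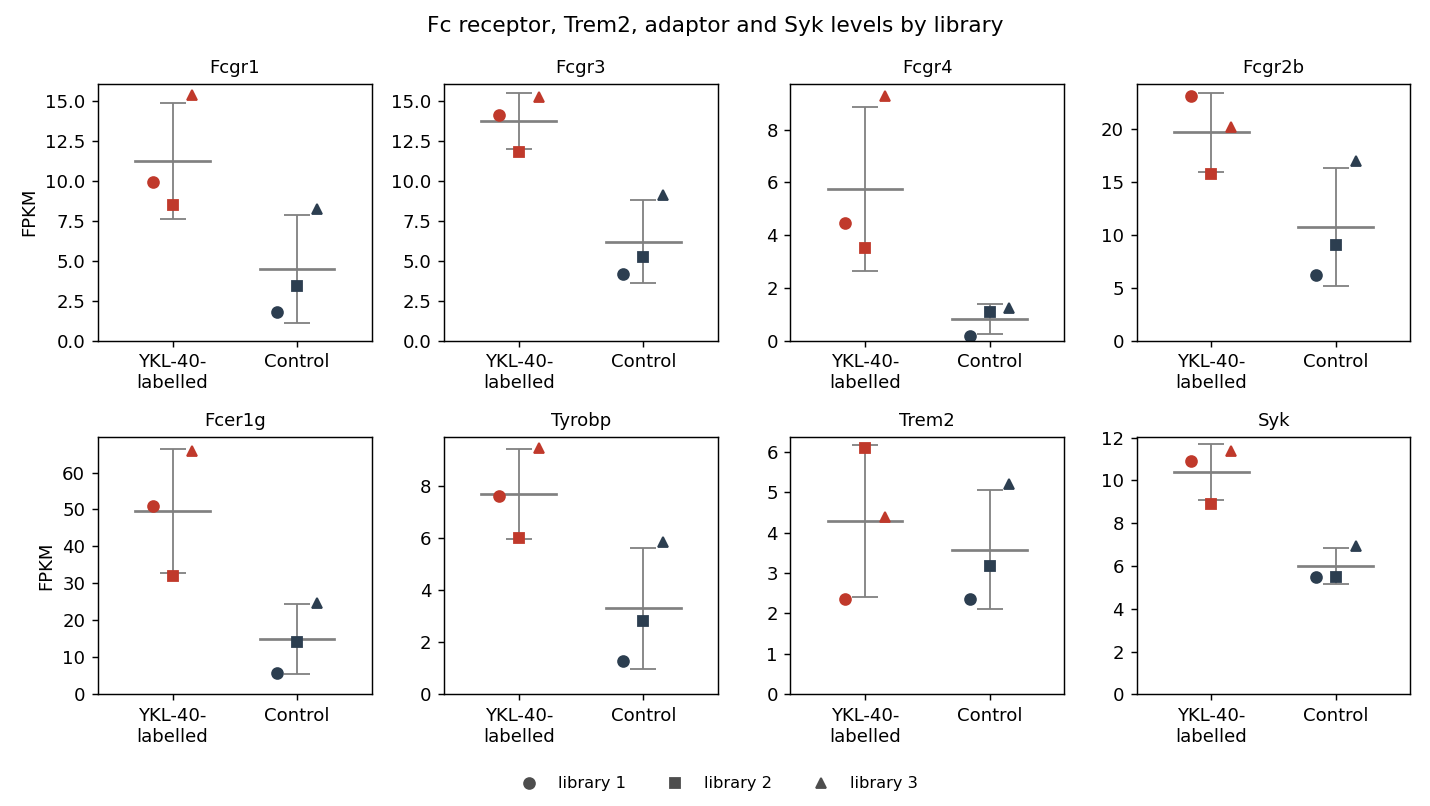
FPKM of the 8 genes in each library, YKL-40 libraries in red and controls in dark blue. Marker shapes give the library number, horizontal lines the group mean and bars 1 SD (n = 3). Fcgr2b and Trem2 are the genes whose groups overlap, and control 3 is the highest control for all 8 genes.

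Of the 8 genes, limma over all 11241 tested genes called 0 at an adjusted p under 0.05 (Benjamini-Hochberg, range 0.0780 for Syk to 0.795 for Trem2), where 0.436% of all tested genes were called. At an unadjusted p under 0.05, 7 were higher in the YKL-40 libraries, as were 8.71% of all tested genes, while 18% had such a p in either direction. In 6 of the 8, every YKL-40 library lay above every control, as in 10.3% of all tested genes, and the groups did not overlap in either direction in 24.4%. The median log2 change of the 8 genes was 1.11, against -0.04 over all tested genes. The number of calls depended on single libraries and on the model, most on control 3. Without control 3, 6 of the 8 genes were called (Fcgr1, Fcgr2b, Fcgr3, Fcer1g, Tyrobp and Syk, with an adjusted p of 0.0360 to 0.0487 in limma and changes of 0.80 to 2.26), where 1.86% of all genes were called. Without YKL-40 library 2, only Syk of the 8 genes was called (change 0.80, adjusted p = 0.0441 in limma), where 2.12% of all genes were. With the replicate number as a block only Fcgr4 was called (adjusted p = 0.0469 in limma), where 1.07% of all genes were. None of the 8 was called by limma without control 1 (0.0178% of all genes), control 2 (0%), YKL-40 library 1 (0.0357%) or YKL-40 library 3 (0.312%), nor with no filter (0.00609%), a pseudocount of 0.1 (0.391%) or median of ratios scaling (0.356%).

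The 6 genes whose groups did not overlap ranked the libraries in the same order, YKL-40 3, 1 and 2 followed by control 3, 2 and 1. Of all tested genes, 190 (1.69%) had this order. Within the controls the genes spanned very different ranges. Control 3 was 6.79 times control 1 for Fcgr4, 4.61 times for Fcgr1 and 4.59 times for Tyrobp, but 2.72 times for Fcgr2b and 2.18 times for Fcgr3. By group mean, the order of FPKM levels in the YKL-40 libraries was Fcer1g, Fcgr2b, Fcgr3, Fcgr1, Syk, Tyrobp, Fcgr4 and Trem2. In the controls it was Fcer1g, Fcgr2b, Fcgr3, Syk, Fcgr1, Trem2, Tyrobp and Fcgr4. In the YKL-40 libraries Fcer1g did not overlap Fcgr2b, nor Fcgr2b Fcgr3, and all later neighbours overlapped. In the controls all neighbours overlapped except Tyrobp and Fcgr4, whose nearest values were 1.27 and 1.22 FPKM.

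The ratio of activating to inhibitory receptor, the summed FPKM of Fcgr1, Fcgr3 and Fcgr4 over that of Fcgr2b, was higher in each YKL-40 library than in any control. It was 1.24, 1.51 and 1.98 in the YKL-40 libraries, against 0.989, 1.08 and 1.10 in the controls. The mean was 1.58 ± 0.376 in the YKL-40 libraries and 1.05 ± 0.0573 in the controls. The YKL-40 libraries thus spread widely, and the control ratios lay close together. The size of the ratio depends on which genes are summed, so it does not compare the amounts of both kinds of receptor. Taken singly, only Fcgr4 over Fcgr2b separated the groups, with 0.193, 0.223 and 0.461 in the YKL-40 libraries, against 0.0289, 0.122 and 0.0719 in the controls. Fcgr1 over Fcgr2b was 0.431, 0.539 and 0.762 in the YKL-40 libraries, against 0.287, 0.375 and 0.485 in the controls. Fcgr3 over Fcgr2b was 0.612, 0.752 and 0.759 in the YKL-40 libraries, against 0.674, 0.581 and 0.539 in the controls. Both of these overlapped between the groups, in each case through YKL-40 library 1.

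With Fcgr4 left out of the sum, the ratio was 1.04, 1.29 and 1.52 in the YKL-40 libraries, against 0.961, 0.956 and 1.02 in the controls, so the groups stayed apart by a small margin. With Fcgr3 left out, because of its closeness to Fcgr2b, it was 0.625, 0.762 and 1.22 in the YKL-40 libraries, against 0.316, 0.497 and 0.557 in the controls. Fcgr4 supplied 15.6%, 14.7% and 23.3% of the activating sum in the YKL-40 libraries, against 2.92%, 11.3% and 6.56% in the controls. The share of Fcgr1 was 36.3 ± 1.90% in the YKL-40 libraries and 36.0 ± 7.73% in the controls.

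**Figure D2:**
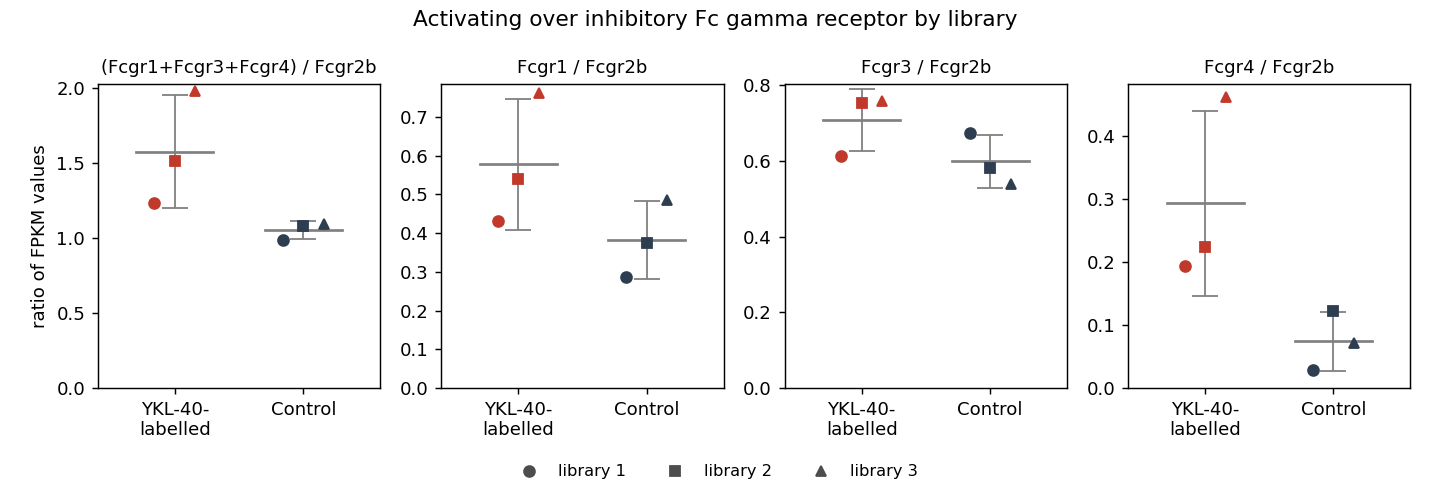
Ratio of FPKM values of activating Fc gamma receptors to the inhibitory receptor Fcgr2b in each library, for the sum of the 3 activating receptors and for each of them. Lines are group means and bars 1 SD (n = 3). The sum and Fcgr4 separate the groups, and the ratios of Fcgr1 and Fcgr3 overlap.

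In bulk tumours, more cells of a type and more RNA per cell cannot be told apart. Many markers of myeloid cells, though not all, were also higher in the YKL-40 libraries. The summed FPKM of 11 macrophage markers was 210, 268 and 346 in the YKL-40 libraries, against 63.3, 104 and 168 in the controls. The most abundant was C1qa, a complement subunit made by macrophages, with 76.2 ± 20.0 FPKM in the YKL-40 libraries and 22.2 ± 9.82 FPKM in the controls. None of these markers was at 0 in all libraries. Limma called 0 of the 10 that were tested, with 8 higher at an unadjusted p under 0.05, as were 8.71% of all tested genes. In 6 tested markers every YKL-40 library lay above every control, as in 10.3% of all tested genes (24.4% without overlap in either direction). The groups of the other tested ones overlapped. Among the latter was Mertk, named after its values were seen. It had 5.89 ± 2.08 FPKM in the YKL-40 libraries and 5.70 ± 0.682 FPKM in the controls. The sum of 5 markers of all leukocytes ranged from 47.5 to 83.5 FPKM in the YKL-40 libraries and from 9.09 to 31.2 FPKM in the controls, with Laptm5 the most abundant.

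Read against the macrophage markers, the shares of 6 of the 8 genes overlapped between the groups, and those of Fcgr4 and Trem2 did not. Fcgr4 was 2.12%, 1.31% and 2.68% of the macrophage marker sum in the YKL-40 libraries, against 0.284%, 1.06% and 0.727% in the controls. Trem2 was 1.12%, 2.27% and 1.27% of that sum in the YKL-40 libraries, against 3.71%, 3.05% and 3.09% in the controls. Fcgr4 was thus higher in every YKL-40 library than in any control, as were 1.02% of all tested genes on this base. Trem2 was lower in every YKL-40 library, as were 82.3% of all tested genes on a base that was itself higher in the YKL-40 libraries, and nothing particular to Trem2 is read from its share. Among the genes that overlapped, Fcer1g was 18.4 ± 6.17% of the sum in the YKL-40 libraries and 12.5 ± 2.96% in the controls. Syk was 3.93 ± 1.09% in the YKL-40 libraries and 6.03 ± 2.35% in the controls. Overlap with 3 libraries a group does not show that such shares are alike. Tyrobp was 2.86 ± 0.698% of the sum in the YKL-40 libraries and 2.72 ± 0.731% in the controls, and Fcgr1 was 4.11 ± 0.838% in the YKL-40 libraries and 3.67 ± 1.10% in the controls. The genes C1qa, C1qb and C1qc made up 64.5 ± 3.09% of the macrophage marker sum in the YKL-40 libraries and 55.2 ± 3.21% in the controls. Without them, a base chosen after the data were seen, Fcgr4 was 3.36 to 8.10% of the sum in the YKL-40 libraries and 0.613 to 2.59% in the controls, and 1.35% of all tested genes were likewise higher without overlap. Trem2 was then 3.26 to 5.84% in the YKL-40 libraries and 6.58 to 8.02% in the controls, and 38.1% of all tested genes were likewise lower without overlap. The other 6 genes overlapped on this base too, among them Fcer1g at 52.9 ± 20.3% in the YKL-40 libraries and 28.0 ± 7.22% in the controls.

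**Figure D3:**
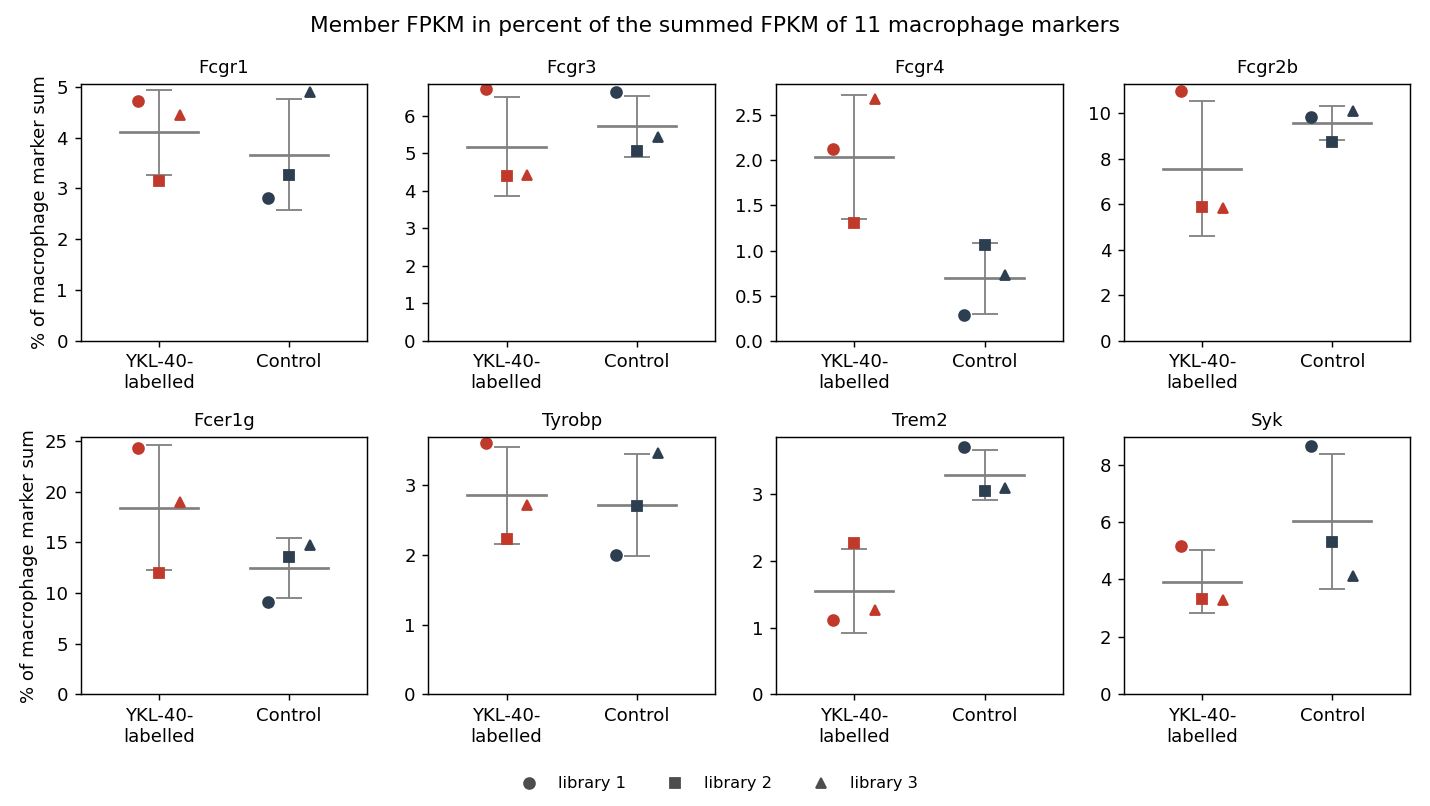
FPKM of each gene in percent of the summed FPKM of 11 macrophage markers in the same library, YKL-40 libraries at the left of each panel. Lines are group means and bars 1 SD (n = 3). Fcgr4 lies higher and Trem2 lower in the YKL-40 libraries without overlap, as do 1.02% and 82.3% of all tested genes on this base, and the other 6 genes overlap.

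The shares were also taken with the sum of the leukocyte markers Ptprc, Coro1a, Laptm5, Cd53 and Cd52 as the base. On this base 94.1% of all tested genes were lower in every YKL-40 library than in any control and 0.587% were higher. The leukocyte sum was itself higher in every YKL-40 library than in any control. The shares of 6 of the 8 genes were lower without overlap, a count from which nothing is read, and those of Fcgr4 and Fcer1g overlapped. Fcgr2b was 29.0 ± 4.54% of this sum in the YKL-40 libraries and 61.3 ± 7.08% in the controls. Fcer1g was 70.8 ± 6.92% in the YKL-40 libraries and 79.3 ± 15.6% in the controls. Trem2 was 3.04%, 12.9% and 5.26% in the YKL-40 libraries, against 25.9%, 21.4% and 16.7% in the controls.

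Markers of other cell types differed between the groups as well, some by a larger ratio than the macrophage markers. The sum of 6 natural killer markers ranged from 5.98 to 19.1 FPKM in the YKL-40 libraries and from 0.0672 to 0.860 FPKM in the controls, led by Gzmb, and limma called both tested markers, Gzmb and Prf1, as higher, where 0.365% of all tested genes were called higher. Both genes are also expressed by cytotoxic T cells. The control means of Gzmb and Prf1, 0.182 and 0.165 FPKM, lay under the filter, so they were tested only through their YKL-40 levels. Nothing is read from these calls, and the other natural killer markers of the list were not tested. The sum of 4 monocyte markers ranged from 12.4 to 33.9 FPKM in the YKL-40 libraries and from 1.47 to 11.3 FPKM in the controls, led by Plac8. The sum of 6 neutrophil markers ranged from 2.01 to 7.83 FPKM in the YKL-40 libraries and from 0.659 to 15.2 FPKM in the controls, highest in control 3, led by S100a9 and with Ly6g at 0 in every library. The sum of 5 dendritic cell markers ranged from 3.63 to 8.44 FPKM in the YKL-40 libraries and from 1.40 to 2.28 FPKM in the controls. Its most abundant and only tested gene, Zbtb46, had 1.55 ± 0.0590 FPKM in the YKL-40 libraries and 1.57 ± 0.414 FPKM in the controls, whereas Cd209a, Clec9a, Flt3 and Xcr1, named after their values were seen, were higher in every YKL-40 library than in any control. The sum of 6 T cell markers, led by Cd8a, ranged from 3.43 to 13.0 FPKM in the YKL-40 libraries and from 0.452 to 0.884 FPKM in the controls. The sum of 5 B and plasma cell markers stayed between 0.900 and 1.73 FPKM in the YKL-40 libraries and between 0.729 and 1.52 FPKM in the controls, led by Cd79a. The sum of 5 mast cell markers was at most 0.661 FPKM in the YKL-40 libraries and at most 0.388 FPKM in the controls, led by Tpsb2 and with Ms4a2 at 0 throughout. Skeletal muscle markers went the other way, with sums of 6.27, 21.6 and 3.00 FPKM in the YKL-40 libraries, against 59.9, 32.2 and 136 FPKM in the controls, led by Tnnt3. The part of each cell type in the differences of the 8 genes was not tested.

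The ligands of the Fc receptors could not be followed. Counts at an unadjusted p under 0.05 in the lists that follow stand against the 8.71% of all tested genes that were higher at that p. Of 13 listed genes for antibody chains, 12 constant region genes were not analysed here, and the joining chain Jchain had 0.218, 0.0505 and 0.163 FPKM in the YKL-40 libraries, against 0, 0 and 0.00917 FPKM in the controls. Among the other Fc receptors and Fc receptor-like genes, 3 of 12 were tested, 0 were called by limma and 1 had an unadjusted p under 0.05. Fcgrt, the neonatal Fc receptor, had 6.31 ± 0.984 FPKM in the YKL-40 libraries and 4.85 ± 0.440 FPKM in the controls. Trim21, a receptor for antibody inside cells, had 3.10 ± 1.10 FPKM in the YKL-40 libraries and 1.53 ± 0.395 FPKM in the controls. Fcrls, a receptor-like gene of mouse myeloid cells, had 1.10 ± 0.518 FPKM in the YKL-40 libraries and 1.38 ± 0.816 FPKM in the controls, and Fcamr and Pigr were at 0 in every library.

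Of 20 other receptors that use these adaptors or a single-tyrosine version of the motif, 6 were tested, and limma called 0 (2 at an unadjusted p under 0.05). The median log2 change of the 6 tested genes was 0.50. Cd300ld, which pairs with Fcer1g, had 5.64 ± 0.625 FPKM in the YKL-40 libraries and 2.33 ± 1.19 FPKM in the controls. Clec4n, the gene of Dectin-2, had 2.38 ± 0.531 FPKM in the YKL-40 libraries and 2.23 ± 2.04 FPKM in the controls, and Clec4e, the gene of Mincle, had 2.04 ± 0.960 FPKM in the YKL-40 libraries and 0.920 ± 0.929 FPKM in the controls. Both are fungal and mycobacterial sensors that pair with Fcer1g, and the groups of both overlapped. Gp6, the collagen receptor of platelets, and Ms4a2 were at 0 in every library.

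Of 15 receptors with ITIM tails, 12 were tested, and limma called 0 (9 at an unadjusted p under 0.05, all higher in the YKL-40 libraries). Their median change was 0.71. Sirpa, the receptor for CD47, was the most abundant at 186 ± 31.7 FPKM in the YKL-40 libraries and 176 ± 6.82 FPKM in the controls. Pecam1, an adhesion molecule of endothelium and leukocytes, had 23.5, 41.1 and 35.4 FPKM in the YKL-40 libraries, against 19.2, 28.8 and 46.3 FPKM in the controls. Cd72, a receptor known from B cells, had 16.0 ± 3.62 FPKM in the YKL-40 libraries and 8.69 ± 2.96 FPKM in the controls. All 12 tested genes of this list had changes above 0, where 42.2% of all tested genes did.

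Downstream of the ITAM, 14 of 21 kinases, scaffolds and effectors were tested, and limma called 0 (8 at an unadjusted p under 0.05). Limma called 3 of them without control 3, 1 without YKL-40 library 2 and 2 with the replicate block, where 1.86%, 2.12% and 1.07% of all genes were called. Their median change was 0.51. Pik3cd, a phosphoinositide kinase subunit of leukocytes, had 14.5 ± 0.880 FPKM in the YKL-40 libraries and 11.9 ± 2.59 FPKM in the controls. The scaffold Lcp2, which Syk-family kinases phosphorylate, had 18.9 ± 7.12 FPKM in the YKL-40 libraries and 6.80 ± 3.83 FPKM in the controls. Prkcd, a protein kinase C, had 12.4 ± 0.616 FPKM in the YKL-40 libraries and 9.90 ± 1.14 FPKM in the controls.

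Of 11 brakes on the pathway, 10 were tested, and limma called 0 (5 at an unadjusted p under 0.05), with a median change of 0.27. Dok1, an adaptor that restrains tyrosine kinase signals, had 21.2 ± 0.939 FPKM in the YKL-40 libraries and 18.2 ± 2.16 FPKM in the controls. Ptpn6, the phosphatase SHP-1, had 20.4 ± 1.66 FPKM in the YKL-40 libraries and 15.9 ± 2.56 FPKM in the controls, and Ubash3b had 13.0 ± 2.29 FPKM in the YKL-40 libraries and 12.1 ± 0.766 FPKM in the controls. Inpp5d, the lipid phosphatase that Fcgr2b recruits, was chosen after its values were seen. It had 3.01, 3.11 and 4.33 FPKM in the YKL-40 libraries, against 0.931, 1.15 and 2.82 FPKM in the controls. Like the activating receptors, it did not overlap between the groups, with control 3 nearest to the YKL-40 libraries.

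The oxidase that phagocytes switch on after Fc receptor engagement had 6 of 6 listed subunit genes tested. Limma called 0, with 5 at an unadjusted p under 0.05 and a median change of 0.98. It called 2 without control 3, 1 without YKL-40 library 2 and 2 with the replicate block. The shares of all genes called in these fits were 1.86%, 2.12% and 1.07%. Rac2 is listed both here and among the downstream genes. Cyba, a membrane subunit, had 10.5 ± 1.89 FPKM in the YKL-40 libraries and 5.69 ± 3.08 FPKM in the controls, and Ncf1, a cytosolic organizer, had 10.0 ± 3.92 FPKM in the YKL-40 libraries and 3.21 ± 2.02 FPKM in the controls.

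All 14 listed genes that are known to accompany Trem2 in lipid-laden macrophages and microglia were tested. Limma called 0 (8 at an unadjusted p under 0.05), with a median change of 0.42. The most abundant were Gpnmb at 1099.6 ± 57.9 FPKM in the YKL-40 libraries and 862 ± 26.5 FPKM in the controls, Cd63 at 850 ± 181 FPKM in the YKL-40 libraries and 645 ± 44.2 FPKM in the controls, and Apoe at 787 ± 43.6 FPKM in the YKL-40 libraries and 693 ± 13.6 FPKM in the controls. Gpnmb and Cd63 are also genes of pigment cells, so their levels in these tumours are not a measure of macrophages. Adam10 and Adam17, the proteases that shed Trem2 from the surface, had changes of -0.06 and -0.21, and limma called 0 of these 2 (0 at an unadjusted p under 0.05).

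Transcription factors known to act at Fc receptor genes had the largest median of these pathway lists, 1.47 over 6 tested genes, of which limma called 0 (5 at an unadjusted p under 0.05). Irf8, a myeloid interferon regulatory factor, had 16.8, 7.99 and 19.5 FPKM in the YKL-40 libraries, against 1.20, 2.51 and 5.03 FPKM in the controls. Stat6, the mediator of interleukin-4 signals, had 40.0 ± 0.957 FPKM in the YKL-40 libraries and 39.6 ± 4.05 FPKM in the controls. Irf8 was highest in YKL-40 library 3, as were the 6 of the 8 genes whose groups did not overlap. Spi1, the gene of PU.1, was chosen after its values were seen and had 11.2 ± 1.80 FPKM in the YKL-40 libraries and 4.03 ± 2.11 FPKM in the controls.

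**Figure D4:**
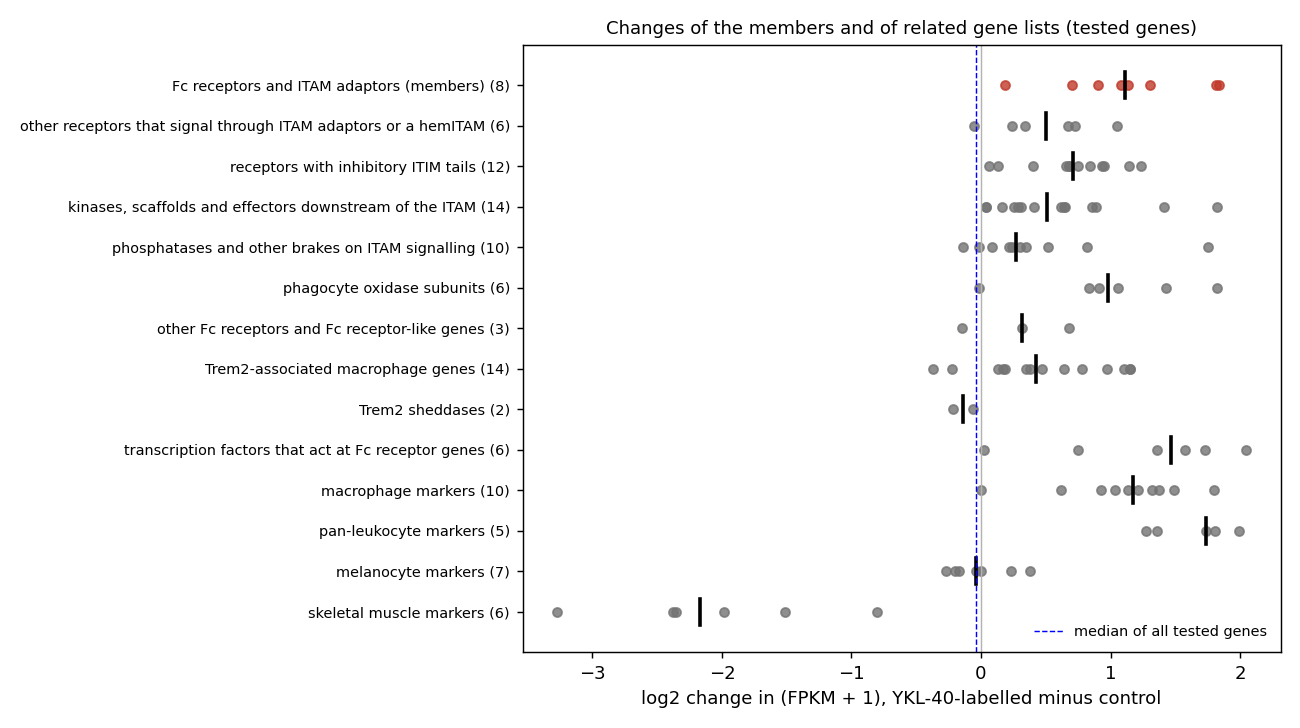
Log2 change in (FPKM + 1), YKL-40 minus control, of each tested gene in the described lists (number tested in parentheses). Vertical black bars are list medians, the 8 genes of Fc receptors, Trem2, adaptors and Syk are in red, and the dashed line is the median of all tested genes, -0.04. The 8 genes run from 0.19 for Trem2 to 1.84 for Fcgr4.

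The genes most like the 8 in pattern were sought among all tested genes by Pearson's correlation of log2(FPKM + 1) with the mean z-score of the 8 genes over the 6 libraries. The group difference itself drives such a value, and with 6 libraries and 11241 genes high values must occur. The 6 nearest were Fmnl1 (0.998), Il2rg (0.997), Ctsb (0.997), Rassf4 (0.995), Nckap1l (0.995) and Apbb1ip (0.994). With the group means taken out, the nearest were Il2rg (0.999), Thbs2 (0.997), Apbb1ip (0.997), Il4ra (0.996), Gpr176 (0.996) and Chst11 (0.995), so Il2rg and Apbb1ip were near by both measures. Fmnl1, Nckap1l and Apbb1ip encode regulators of actin in leukocytes, Il2rg the common gamma chain of interleukin receptors, and Ctsb a lysosomal protease. Among the 8 genes, Trem2 was the least like the mean of the other 7, at 0.397, against 0.907 to 0.991 for the rest.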

How the data were processed

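RNA of 6 tumours was sequenced, 3 labelled YKL-40 overexpressing and 3 controls. Per the labels' protocols, 2 µg of RNA per tumour went into TruSeq V2 libraries. The authors deposited 1 FPKM value per gene and library. Build mm10 and the tools HISAT2, StringTie, limma, DESeq2 and bcl2fastq 2.0 appear in the submitters' processing notes, with no roles. How transcripts were combined and which annotation was used are not given in the sources used here. Of 20938 genes, 4521 were at 0 in all libraries.

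Values were used as log2(FPKM + 1). The 11241 genes averaging 1 FPKM or more were tested with limma 3.58.1 in R 4.3.3 (moderated variances with a trend, two-sided, Benjamini-Hochberg over all tested genes, threshold 0.05). The procedure was tested on simulated data. The genes, lists and rules were chosen with earlier results of these data known. Named genes are the 8 described, the 3 most abundant measured genes of each pathway list, genes called, genes of like pattern, and the leading or absent markers. Others are marked as chosen after their values were seen, and some genes that the rule names are not reported here. No adjustment over a list and no set test was used. Gene and promoter positions came from RefSeq (GRCm38.p6), and transcripts and exon overlap from GENCODE on the same assembly. Motifs were searched as exact letters. Protein sequences were not used here. Alternatives were a pseudocount of 0.1, no filter, median of ratios scaling, the replicate number as a block and leaving out each library.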

Additional observations from a re-analysis of the deposited data

How the results depend on the processing

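Of the 8 genes, 7 kept a higher level in the YKL-40 libraries under every alternative tried. For the 6 of them whose groups did not overlap, leaving out a library could not have reversed the change. Trem2 had a change of -0.01 when control 1 was left out and -0.0591 when YKL-40 library 2 was. Leaving out 1 library gave changes from 1.49 to 2.08 for Fcgr4, 1.30 to 2.26 for Fcer1g, 0.90 to 1.77 for Fcgr1, 0.60 to 1.26 for Fcgr2b and -0.06 to 0.48 for Trem2. Calls among the 8 genes ranged from 0 to 6 over these fits. Without control 3 (1.86% of all genes called), limma called 3 each of 12 tested ITIM receptors, 15 downstream genes and 14 genes accompanying Trem2. It also called 2 each of 10 brakes, 6 oxidase genes and 6 transcription factors, and 1 of 6 other receptors with these adaptors. Without YKL-40 library 2 (2.12% of all genes) it called 1 each of 14 downstream, 6 oxidase and 6 transcription factor genes and 7 other receptors. With the replicate block (1.07% of all genes) it called 2 each of 14 downstream and 6 oxidase genes, lists that share Rac2. In the other fits it called 0 in every pathway list. Over all genes, 41 were called higher and 8 lower. Without a filter these counts were 1 and 0, where more genes were tested. Leaving out 1 library gave 0 to 198 higher and 0 to 40 lower calls, with 189 higher without control 3, 198 without YKL-40 library 2, 33 without YKL-40 library 3, 2 without control 1 or YKL-40 library 1, and 0 without control 2.

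The labels do not say whether the replicate number pairs the libraries, and the main fit did not use it. Deviations from the group means correlated at -0.083, -0.19 and 0.0017 between same-numbered libraries, and no library correlated best with its own number. With so few libraries a group, these values cannot exclude a pairing. With the replicate block, 110 genes were called higher, and 1 of the 8 genes was called, Fcgr4 (adjusted p = 0.0469 in limma), where 1.07% of all genes were called.

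The mean activating to inhibitory ratio was 1.58 in the YKL-40 libraries and 1.05 in controls. The YKL-40 mean and the control mean were 0.488 and 0.247 with the geometric mean of the activating receptors, 0.870 and 0.457 without Fcgr3, 1.65 and 1.25 with a pseudocount of 1 FPKM, and 1.29 and 0.980 without Fcgr4, an alternative chosen after seeing the data. Leaving out 1 library gave means of 1.38 to 1.75 in the YKL-40 libraries and 1.03 to 1.09 in controls. The groups did not overlap in any of these versions, and leaving out a library could not have made them overlap. Read numbers are unknown, so the counting error of low values such as Fcgr4 in control 1 cannot be given.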
